A study of Mus musculus with 4 samples.

Results

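Levels of 10 transcription factor genes were followed in induced regulatory T (iTreg) cells that were cultured with or without added iron. The genes were Irf4, Batf, Batf3, Prdm1, Nfil3, Jun, Junb, Jund, Fosl2 and Fos. They were chosen by name, with earlier results of these data known, as factors downstream of the T cell receptor in effector Treg cells. Their symbols were matched to Ensembl identifiers. All 10 were found among the 47729 gene rows of the count table, and all 10 passed the filter on low counts. The cells were CD4 T cells of C57BL/6 mice, labelled as spleen, with no mutant allele or transgene named. All cultures were activated through CD3 and CD28 with antibodies, the stimulus that engages the T cell receptor pathway. Both groups received the same iTreg medium, which held TGF-β and IL-2 and antibodies blocking IL-4 and IFNγ. The FeSO4 group additionally received ferrous sulfate at 50 µM, and the Mock group received PBS, each for 4 days. The mice were young adults by the study's general statement on its animals. Each group had 2 libraries, and no sort of these cultures for Foxp3 before RNA extraction was found in the sources used here. In bulk RNA, fewer cells of a type and less RNA per cell cannot be told apart.

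IRF4 and BATF are induced when the T cell receptor is engaged. BATF pairs with JUN proteins at AP-1 sites, and IRF4 binds DNA weakly alone and joins BATF and JUN at composite sites. In Treg cells these factors are known for the effector program, which includes Blimp-1, encoded by Prdm1, and IL-10. The classical AP-1 factor is a pair of a JUN and a FOS protein, and BATF competes with FOS for JUN.

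The 4 factors that rose with FeSO4 were Irf4, Batf, Batf3 and Prdm1, whereas Jun and Junb were lower by smaller amounts and Nfil3, Jund, Fosl2 and Fos were not called. A call here is an adjusted p under 0.05 in edgeR's quasi-likelihood test, adjusted over all 13732 genes tested. The rises ranged from 1.49-fold for Irf4 to 8.34-fold for Batf3. These 4 genes kept their call in all 13 alternatives tried. Jun and Junb each lost theirs in 4 of 13, Jun with DESeq2 among others. Among all genes tested, 10.9% were called higher and 9.17% lower, beside 4 and 2 of these 10 genes. The median log2 fold change of the 10 genes was 0.31, against -0.00052 over all genes tested.

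The sequences around the transcription starts of the 4 genes that rose, and of Jun, which was lower, are shown because these genes differ in promoter composition and in the AP-1-like letters they hold. Each is the RefSeq promoter window on GRCm38.p6, from 250 bases before to 50 bases after the start, on the strand of the gene. It spans chr13:30748983-30749282 for Irf4 (plus strand), chr12:85686470-85686769 for Batf (plus), chr1:191098164-191098463 for Batf3 (plus), chr10:44458699-44458998 for Prdm1 (minus) and chr4:95052173-95052472 for Jun (minus). Capitals mark matches to the motifs searched.
Irf4: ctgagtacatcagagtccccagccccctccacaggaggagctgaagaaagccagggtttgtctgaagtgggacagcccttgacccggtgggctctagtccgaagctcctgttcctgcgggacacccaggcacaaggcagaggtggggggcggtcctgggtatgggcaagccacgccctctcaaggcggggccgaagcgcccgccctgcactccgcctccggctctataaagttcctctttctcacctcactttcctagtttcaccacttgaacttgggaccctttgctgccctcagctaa
Batf: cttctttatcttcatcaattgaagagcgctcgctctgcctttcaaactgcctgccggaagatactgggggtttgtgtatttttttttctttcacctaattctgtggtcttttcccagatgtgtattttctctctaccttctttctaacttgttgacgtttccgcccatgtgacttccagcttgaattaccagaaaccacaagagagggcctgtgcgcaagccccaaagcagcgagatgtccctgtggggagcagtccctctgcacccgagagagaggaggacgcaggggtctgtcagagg
Batf3: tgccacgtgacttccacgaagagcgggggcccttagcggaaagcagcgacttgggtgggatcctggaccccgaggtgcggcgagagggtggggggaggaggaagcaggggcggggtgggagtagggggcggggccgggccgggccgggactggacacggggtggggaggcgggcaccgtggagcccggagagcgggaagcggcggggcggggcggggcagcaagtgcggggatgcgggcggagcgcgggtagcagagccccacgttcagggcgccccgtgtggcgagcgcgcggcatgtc
Prdm1: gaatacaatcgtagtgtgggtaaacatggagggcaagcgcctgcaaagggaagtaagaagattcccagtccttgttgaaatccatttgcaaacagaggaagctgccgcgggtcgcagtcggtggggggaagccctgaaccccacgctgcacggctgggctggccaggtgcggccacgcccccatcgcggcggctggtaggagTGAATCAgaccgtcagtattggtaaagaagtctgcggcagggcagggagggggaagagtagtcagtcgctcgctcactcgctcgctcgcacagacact
Jun: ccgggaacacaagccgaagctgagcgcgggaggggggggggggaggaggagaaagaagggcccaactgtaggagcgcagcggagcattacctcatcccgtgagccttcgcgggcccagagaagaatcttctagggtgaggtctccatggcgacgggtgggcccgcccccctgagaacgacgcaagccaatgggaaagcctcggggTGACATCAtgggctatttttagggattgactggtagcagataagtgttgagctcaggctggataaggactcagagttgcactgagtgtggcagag
All 10 genes matched 1 promoter entry each. The motifs searched on both strands were the AP-1-like pattern TGANTCA, the CRE-like pattern TGACNTCA and a core of IRF sites, GAAANNGAA. N stands for any base, so these patterns are looser than the consensus sites. No match overlapped another. The Prdm1 window held 1 AP-1-like match, TGAATCA with A at the open position, from 48 to 42 bases before the start. The Jun window held 1 CRE-like match, from 45 to 38 bases before its start. Binding at these matches was not tested. Jund held 1 IRF core match and Fosl2 held 2. The windows of Irf4, Batf, Batf3, Nfil3, Junb and Fos held none of the 3 motifs, which says only that these letters are not in these windows. Of all 32851 RefSeq promoters of this length, 7.81% held the AP-1-like motif, 8.83% the CRE-like motif and 8.56% the IRF core. The Batf3 window was 75.7% G and C with 34 CpG, against 49.7% and 9 CpG for Batf. The Prdm1 and Nfil3 windows lie inside the spans of their RefSeq genes, at internal starts, so other starts of these genes were not covered.

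Irf4 encodes the interferon regulatory factor that partners BATF in lymphocytes. It was at 113 and 124 CPM in Mock replicates 1 and 2 and at 174 and 179 CPM in the FeSO4 libraries replicates 1 and 2, where CPM is the count relative to the TMM-scaled library total. Both FeSO4 libraries lay above both Mock libraries, and the gap was wider than the distance between replicates of either group. The mean went from 119 ± 7.98 to 176 ± 3.07 CPM (SD, n = 2 each), and the log2 fold change was 0.57 ± 0.07 (SE, 95% interval 0.43 to 0.72, edgeR adjusted p = 2.31e-05). Irf4 (ENSMUSG00000021356) lies at chr13:30841095-30858796 on NCBIM37 (mm9), plus strand.

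Batf encodes a bZIP factor without a transactivation domain, which works through its partners. It was at 25.6 and 27.2 CPM in the Mock libraries and 42.0 and 44.5 CPM in the FeSO4 libraries. The replicates of each group lay close together and the groups did not overlap. The mean rose from 26.4 ± 1.15 to 43.3 ± 1.78 CPM (SD, n = 2 each), and the log2 fold change was 0.71 ± 0.09 (SE, 95% interval 0.52 to 0.91, edgeR adjusted p = 4.97e-05). Batf (ENSMUSG00000034266) lies at chr12:87027619-87050037 on NCBIM37, plus strand.

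Batf3, a paralog of Batf best known for the development of cross-presenting dendritic cells, made the largest change of the 10 genes. It had 27 and 23 counts in Mock against 197 and 165 in FeSO4. These counts were equivalent to 0.665 and 0.55 CPM in the Mock libraries and 5.75 and 4.46 CPM in the FeSO4 libraries. Batf3 was thus scarce in both Mock libraries and several times higher in both FeSO4 libraries. The log2 fold change was 3.06 ± 0.34 (SE, 95% interval 2.33 to 3.79, edgeR adjusted p = 1.06e-05), and by size it ranked 58 of 13732. Batf3 (ENSMUSG00000026630) lies at chr1:192922293-192932822 on NCBIM37, plus strand.

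Because Batf3 is used by dendritic cells, their markers were read beside it. Of the 5 dendritic cell markers, Clec9a had 0 counts in all 4 libraries, Flt3 at most 2, and Itgax 3 in Mock replicate 1 and 0 elsewhere. Xcr1 had 5 and 0 counts in Mock and 1 and 14 in FeSO4. The summed level of the list, most of it from Zbtb46, was 4.26 to 4.41 CPM in the Mock libraries and 4.51 to 6.16 CPM in the FeSO4 libraries.

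Prdm1 encodes Blimp-1, the zinc finger repressor of late effector T cells and plasma cells. It had 28 and 43 counts in Mock and 92 and 150 in FeSO4, or 0.69 and 1.03 CPM against 2.69 and 4.05 CPM. The groups did not overlap, although the library numbered 2 was higher than the library numbered 1 in each group. The mean rose from 0.859 ± 0.239 to 3.37 ± 0.967 CPM (SD, n = 2 each), and the log2 fold change was 1.97 ± 0.36 (SE, 95% interval 1.20 to 2.74, edgeR adjusted p = 0.00112). Prdm1 (ENSMUSG00000038151) lies at chr10:44156983-44248307 on NCBIM37, minus strand.

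Plasma cells also express Prdm1, and their 3 markers stood apart in Mock replicate 1. Jchain had 62 counts there and 0 to 2 in the other libraries, Sdc1 had 49 against 8 to 14, and Mzb1 had 5 against 0. Their summed level was 2.86 CPM in Mock replicate 1, 0.239 CPM in Mock replicate 2, and 0.438 and 0.27 CPM in the FeSO4 libraries. Without Mock replicate 1, the log2 fold change of Prdm1 was 1.71 (edgeR adjusted p = 0.00972), with Irf4 at 0.50, Batf at 0.66 and Batf3 at 3.19.

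Nfil3, a bZIP repressor that acts in several lymphoid lineages, was at 8.77 and 10.4 CPM in the Mock libraries and 9.08 and 9.64 CPM in the FeSO4 libraries. Both FeSO4 libraries lay between the Mock libraries. The log2 fold change was -0.03 ± 0.16 (SE, edgeR adjusted p = 0.913), with a 95% interval from -0.37 to 0.30, and its sign changed when Mock replicate 2 or FeSO4 replicate 1 was left out.

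**Figure D1:**
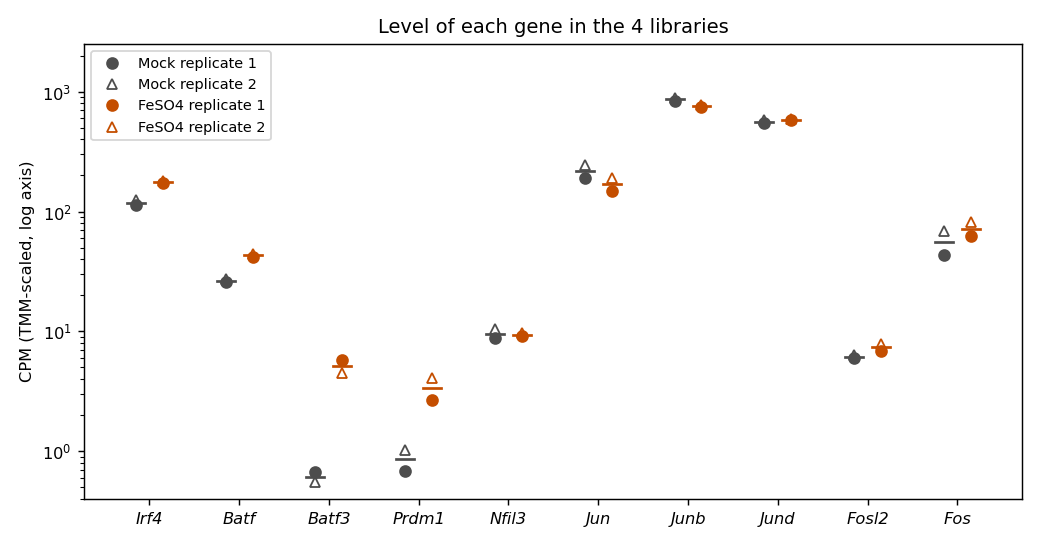
CPM of each of the 10 genes in every library on a log axis, with Mock in grey and FeSO4 in orange, replicate 1 as filled circles, replicate 2 as open triangles and the group mean as a line. The groups stand apart for Irf4, Batf, Batf3 and Prdm1, most of all for Batf3, from about 0.608 to 5.10 CPM, while those of Nfil3 and Fos overlap.

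The JUN proteins are the partners of both BATF and FOS. Jun was at 191 and 244 CPM in the Mock libraries and 147 and 189 CPM in the FeSO4 libraries. The groups did not overlap, but the higher FeSO4 library came close to the lower Mock library, and the replicates of each group lay far apart. Between libraries of the same number, the log2 ratio of FeSO4 to Mock was -0.372 and -0.367. The log2 fold change was -0.37 ± 0.11 (SE, 95% interval -0.59 to -0.14, edgeR adjusted p = 0.0228). This call was lost with DESeq2 (adjusted p = 0.363), without the filter on low counts (0.281), without Mock replicate 2 (log2 fold change -0.17, adjusted p = 0.288) and without FeSO4 replicate 1 (-0.19, adjusted p = 0.237).

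Junb, which encodes a JUN protein known as a partner of BATF in T helper cells, was at 831 and 892 CPM in the Mock libraries and 739 and 767 CPM in the FeSO4 libraries. Both FeSO4 libraries were below both Mock libraries. The log2 fold change was -0.19 ± 0.06 (SE, 95% interval -0.32 to -0.07, edgeR adjusted p = 0.0319). The call was lost without the filter (adjusted p = 0.126), without Mock replicate 2 (-0.14, adjusted p = 0.181), and without FeSO4 replicate 1 or FeSO4 replicate 2 (adjusted p = 0.235 and 0.0758).

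Jund, often described as the steadily expressed JUN gene, was at 548 and 576 CPM in the Mock libraries and 577 and 586 CPM in the FeSO4 libraries. Both FeSO4 libraries were nominally above both Mock libraries, by less than the Mock replicates differed. The log2 fold change was 0.05 ± 0.06 (SE, 95% interval -0.08 to 0.17, edgeR adjusted p = 0.609), and it was -0.02 when libraries were scaled by size only. Jun (ENSMUSG00000052684, chr4:94715725-94718913 on NCBIM37, minus strand) and Jund (ENSMUSG00000071076, chr8:73221638-73224515, plus strand) each overlap a gene on the opposite strand, BC042782 and Gm11175. The strand setting of the counting is not stated, so how reads over these overlaps were assigned or set aside cannot be told. Reads set aside as ambiguous made up 3.78 to 3.91% of all rows per library. The levels of Jun and Jund may therefore be too low.

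Of the FOS genes, Fosl2, which encodes Fra-2, was at 5.99 and 6.34 CPM in the Mock libraries and 6.92 and 7.86 CPM in the FeSO4 libraries. Both FeSO4 libraries were above both Mock libraries, and the difference was not called (log2 fold change 0.26 ± 0.18, SE, 95% interval -0.12 to 0.65, edgeR adjusted p = 0.34). Fos, the immediate-early gene, was at 43.7 and 68.5 CPM in the Mock libraries and 62.2 and 81.4 CPM in the FeSO4 libraries. The libraries numbered 2 were above those numbered 1 in both groups, and the groups overlapped. Between libraries of the same number, Fos was higher in FeSO4 by 0.51 and 0.25 on the log2 scale. The mean was 56.1 ± 17.5 CPM in the Mock libraries and 71.8 ± 13.5 CPM in the FeSO4 libraries (SD, n = 2 each), and the log2 fold change was 0.36 ± 0.15 (SE, 95% interval 0.04 to 0.67, edgeR adjusted p = 0.104). Fos was called higher in 3 of 13 alternatives. One was the block for the replicate number (log2 fold change 0.37, edgeR adjusted p = 0.00131), and the others left out Mock replicate 2 (0.72) or FeSO4 replicate 1 (0.54). The methods describe paired samples from independent experiments, but no source ties the libraries' numbers to those pairs.

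By library order, 6 of the 10 genes had both FeSO4 libraries above both Mock libraries, and 2 had both below. Over all genes tested these shares were 30.1% and 29.4%. The 4 genes that rose kept their direction and their call in all 13 alternatives tried, with log2 fold changes of 0.50 to 0.64 for Irf4, 0.65 to 0.76 for Batf, 2.87 to 3.24 for Batf3 and 1.64 to 2.30 for Prdm1.

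**Figure D2:**
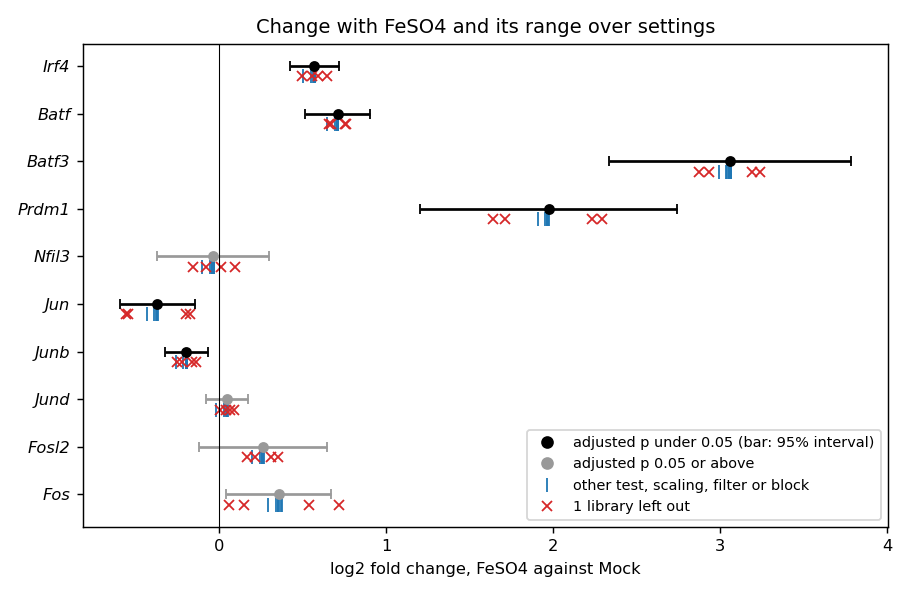
Log2 fold change of each gene, FeSO4 against Mock, with its 95% interval, in black for an adjusted p under 0.05 and grey otherwise; blue ticks are other tests, scalings, filters or the replicate block, and red crosses are fits without 1 library. The marks of Irf4, Batf, Batf3 and Prdm1 all lie above 0, those of Jun and Junb all below it, and those of Nfil3 on both sides.

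Levels of different genes were compared as CPM per kilobase of exon. Exon lengths came from GENCODE M1, which may not be the annotation used for counting. The limit from the overlaps of Jun and Jund applies to their order, sums and ratios as well. In this unit the order from the top was Junb, Jund, Jun, Batf, Irf4 and Fos in both groups. Junb was at 477 ± 24.2 in Mock and 417 ± 11.2 in FeSO4, Jund at 195 ± 6.90 and 202 ± 2.29, and Jun at 68.2 ± 11.9 and 52.8 ± 9.35 CPM per kilobase (SD, n = 2 each). Batf stood at 27.7 and 45.3, Irf4 at 25.2 and 37.4, and Fos at 23.8 and 30.5 CPM per kilobase. The libraries of Fos overlapped those of Batf and Irf4 in Mock, so their order there is not separated, whereas in FeSO4 the 3 genes did not overlap. Among the scarce genes, Batf3 moved from 9th place in Mock (0.854) to 7th in FeSO4 (7.17), above Nfil3 (4.73 and 4.62) and Fosl2 (1.05 and 1.26). Prdm1 was last in both groups, at 0.156 and 0.613 CPM per kilobase.

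Summed per kilobase, Batf and Batf3 together were at 27.7 and 29.3 in Mock and 52.1 and 52.9 in FeSO4. Batf3 made up 3.37 and 2.64% of this sum in Mock and 15.5 and 11.8% in FeSO4, so most BATF-type transcript was Batf in every library. The 3 JUN genes summed to 710 and 771 in Mock and to 655 and 688 CPM per kilobase in FeSO4. Transcript of the JUN genes outnumbered that of the BATF genes by 25.6 and 26.3 to 1 in Mock and by 12.6 and 13.0 to 1 in FeSO4. The replicates of a group differed little in this ratio. Jund made up 26.8 and 26.0% of the JUN sum in Mock and 30.6 and 29.6% in FeSO4. Fos and Fosl2 together were at 19.6 and 30.2 in Mock and 27.6 and 35.9 CPM per kilobase in FeSO4, with overlapping groups. These sums and ratios carry no test and concern transcripts, not proteins.

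**Figure D3:**
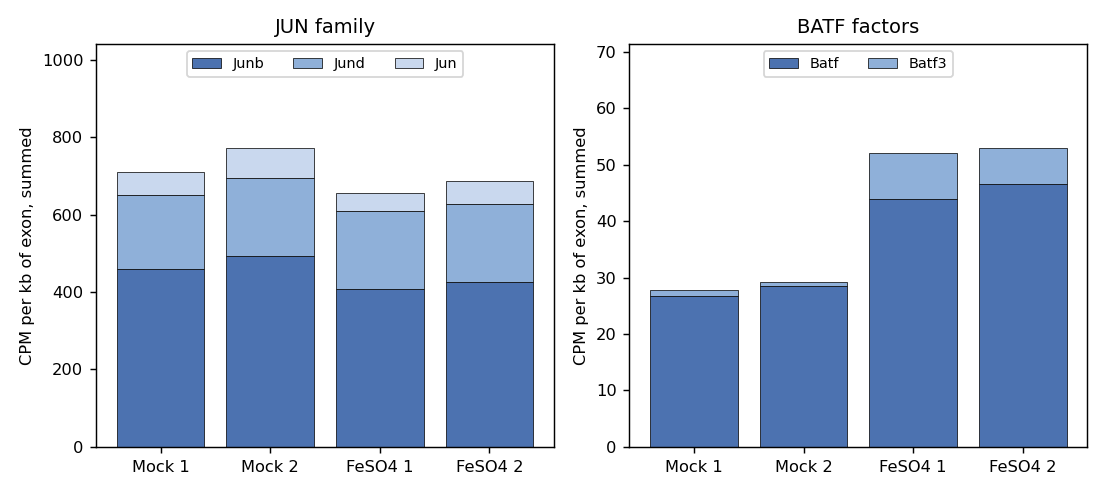
Stacked CPM per kilobase of exon in each library for the JUN family (left) and the BATF factors (right), on separate axes that start at 0. The JUN stacks reach 655 to 771 and the BATF stacks 27.7 to 52.9, with Batf3 a visible share in the FeSO4 libraries.

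Other AP-1 and related bZIP genes showed no common direction. Of 9 listed, 7 were tested, of which 1 was called higher and 1 lower, beside 10.9% and 9.17% of all genes tested. The median log2 fold change was 0.02. Without Mock replicate 1 or without FeSO4 replicate 2, 2 were called lower. Atf3, a stress-induced bZIP factor, had 24 and 27 counts in Mock and 134 and 90 in FeSO4, a log2 fold change of 2.34 ± 0.40 (SE, edgeR adjusted p = 0.000592). Bach2, a bZIP repressor known to restrain effector genes at AP-1 sites, was at 55.9 and 65.9 CPM in the Mock libraries and 30.8 and 40.7 CPM in the FeSO4 libraries. The Bach2 libraries did not overlap, with a log2 fold change of -0.77 ± 0.11 (SE, edgeR adjusted p = 0.000158), a call lost with no filter (adjusted p = 0.0533). Batf2, the third BATF paralog, was too scarce to test, with 6 and 1 counts in Mock and none in FeSO4. Atf7 had 0 counts in all 4 libraries.

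Of the 8 other interferon regulatory factors, all tested, 3 were called higher and 1 lower, beside 10.9% and 9.17% of all genes tested. Their median log2 fold change was 0.26. Irf8, the closest relative of Irf4, was at 62.3 and 63.6 CPM in the Mock libraries and 125 and 93.6 CPM in the FeSO4 libraries (log2 fold change 0.79 ± 0.10, SE, edgeR adjusted p = 4.5e-05). Irf1, an interferon-induced activator, rose by 0.67 ± 0.08 (SE, adjusted p = 2.56e-05). Irf7 rose by 0.41 and Irf5 fell by 0.37 on the log2 scale (edgeR adjusted p = 0.0409 and 0.0349), calls lost without Mock replicate 1, without Mock replicate 2 and without FeSO4 replicate 2, and for Irf7 also without FeSO4 replicate 1. Both calls were lost with DESeq2 and with no filter as well, and that of Irf7 with upper quartile scaling and library size only.

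Upstream of these factors, 16 T cell receptor signalling genes were tested. Of these, 2 were called higher and 4 lower, beside 10.9% and 9.17% of all genes tested. The median log2 fold change of the 16 genes was -0.08. The NFAT and NF-κB factors Nfatc2, Rel and Nfatc1 fell by 0.35, 0.34 and 0.22 on the log2 scale, and the kinase Prkcq fell by 0.29. Malt1, a paracaspase of NF-κB signalling, rose by 0.45, and the ERK kinase Mapk3 by 0.21. The adjusted p of these 6 genes ran from 0.000136 for Malt1 to 0.0425 for Mapk3 in edgeR. Nfatc1 and Mapk3 were not called without Mock replicate 2 or without either FeSO4 library, nor was Rel without FeSO4 replicate 1. With no filter, Nfatc1, Rel and Mapk3 were not called. The call of Mapk3 was lost with upper quartile scaling and with library size only as well. Of 10 immediate-early genes tested, which are induced together with Fos and Jun, 2 were called higher and 2 lower. Beside the same all-gene shares, 10.9% and 9.17%, counts this small do not set the list apart. Nr4a1 changed by 0.81 ± 0.10, Klf6 by 0.53 ± 0.07, Btg2 by -0.52 ± 0.09 and Ier2 by -0.47 ± 0.06 (log2 fold change, SE). The median of the 10 genes was 0.12. Without Mock replicate 1, 4 genes of this list were called lower.

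Effector Treg genes known to depend on Irf4, Batf or Prdm1 had the largest median of the 6 lists, 0.55. The lists were written with earlier results of these data known, so their order is not independent of the values. Of 18 listed and 17 tested, 7 were called higher and 0 lower by edgeR, beside 10.9% and 9.17% of all genes tested. DESeq2 and limma-voom called 0 lower as well. In edgeR 1 gene, Tnfrsf18 (log2 fold change -0.16), had an unadjusted p under 0.05 downwards. Without Mock replicate 2 and with library size only, 1 gene was called lower. Il10, the cytokine of effector Treg cells, was at 3.01 and 4.71 CPM in the Mock libraries and 9.84 and 13.1 CPM in the FeSO4 libraries (log2 fold change 1.57 ± 0.22, SE, edgeR adjusted p = 8.53e-05). The costimulatory receptor Icos was at 104 in both Mock libraries and at 160 and 158 CPM in the FeSO4 libraries, a log2 fold change of 0.61 ± 0.07. Neither gene's groups overlapped. The chemokine receptor Ccr8 rose by 0.57, the ectonucleotidase Entpd1 by 0.53, Ebi3, a subunit of IL-35, by 0.62 and the inhibitory receptor Lag3 by 1.29. The granzyme gene Gzmb rose by 0.99 ± 0.31 (SE, edgeR adjusted p = 0.0317). Without Mock replicate 2, 4 genes of the list were called, Ebi3, Lag3 and Gzmb being lost, and 3 were called with no filter. Ebi3 was also not called without FeSO4 replicate 2, nor Gzmb with DESeq2 or without either FeSO4 library. The remaining 10 tested genes were not called, with log2 fold changes from -0.70 ± 0.74 for Areg to 1.16 ± 0.69 for Tigit, and 6 of them were negative.

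Foxp3, the defining factor of Treg cells, was called lower beside these effector genes. It stood at 587 and 693 CPM in Mock replicates 1 and 2 and at 376 and 472 CPM in FeSO4 replicates 1 and 2, without overlap. The log2 fold change was -0.59 ± 0.09 (SE, edgeR adjusted p = 0.000223), and the call was lost with no filter (adjusted p = 0.067). The part of this difference in the values of the 10 factors and of the effector genes was not tested.

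Genes known to be repressed by Blimp-1 or to oppose it had a median log2 fold change of -0.24. Of 9 listed, 7 were tested, of which 2 were called lower and 1 higher, beside 9.17% and 10.9% of all genes tested. Id3, an inhibitor of E proteins, fell by 0.53 and the lymph node homing receptor Ccr7 by 0.24, while the naive and memory cell factor Tcf7 rose by 0.26 (edgeR adjusted p = 0.000221, 0.0141 and 0.0102). The Ccr7 call was lost without Mock replicate 1 or FeSO4 replicate 1, and that of Tcf7 without FeSO4 replicate 2. Both calls were also lost with no filter. Bcl6, the reciprocal repressor of Prdm1, had 192 and 164 counts in Mock and 82 and 168 in FeSO4, with overlapping groups. Il2, a direct Blimp-1 target, had 9 and 8 counts in Mock and 6 and 5 in FeSO4 and was too low to test.

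**Figure D4:**
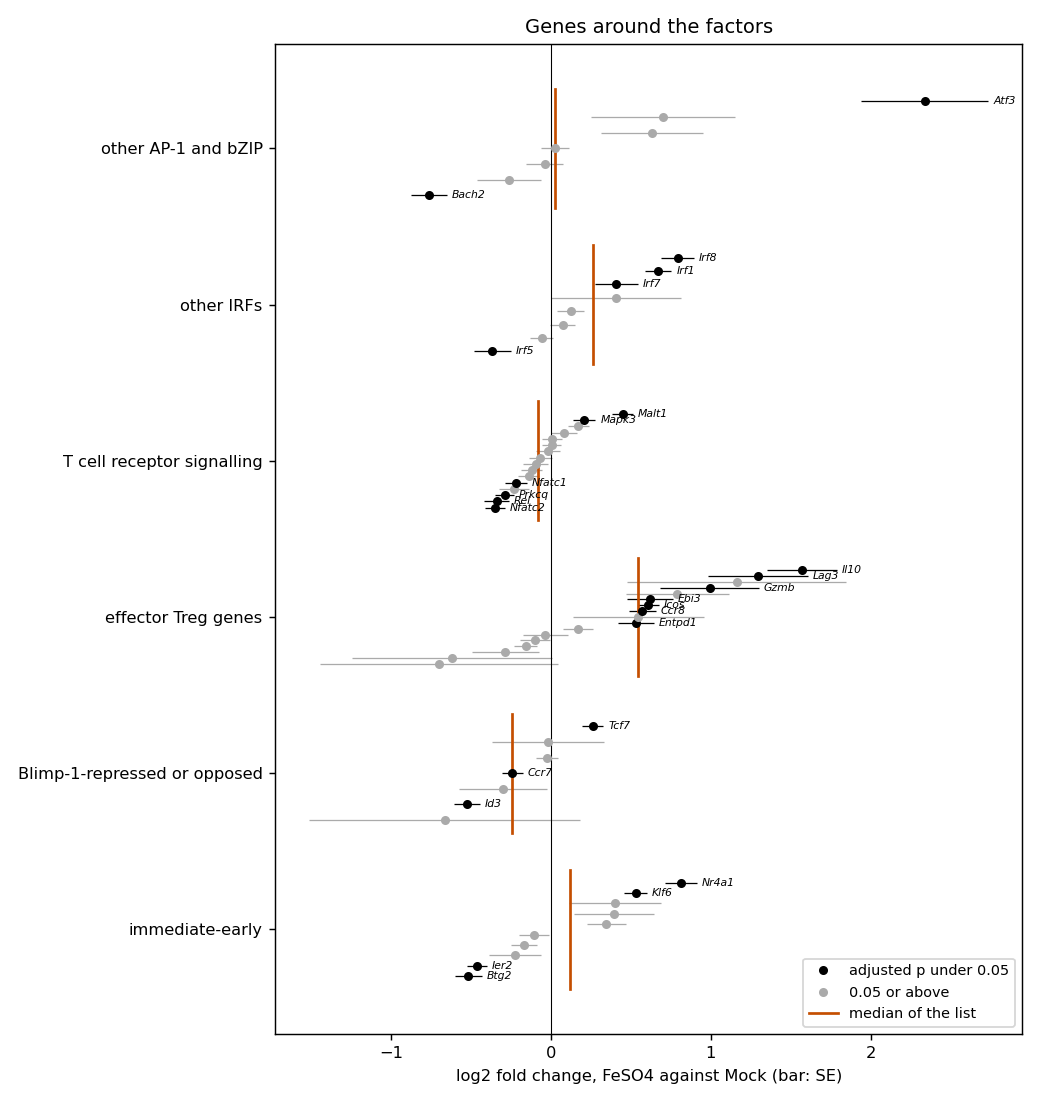
Log2 fold change with SE for the tested genes of 6 lists, black where the adjusted p was under 0.05 and grey otherwise, with the median of each list as an orange line. Medians run from -0.24 for genes repressed or opposed by Blimp-1 to 0.55 for effector Treg genes. The lists were written with earlier results of these data known.

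Genes with the nearest profiles over the 4 libraries were sought for 3 of the factors, as the smallest Euclidean distance between centred log2 CPM among 7963 named genes whose mean over the 4 libraries was at least 10 CPM. For Irf4 they were Slc2a1 (distance 0.0267), which encodes the glucose transporter GLUT1, the nucleolar gene Lyar (0.0636) and Entpd1 (0.0647). For Batf they were the tetraspanin Cd53 (0.0485), Nov (0.0616) and the myosin Myo6 (0.0654). Prdm1 had more distant neighbours, Asns (0.173), which encodes asparagine synthetase, the aldolase Aldoc (0.394) and the receptor Gpr15 (0.427). These 3 were below 10 CPM in both Mock libraries and reached the mean through FeSO4. With 4 libraries, a small distance mainly states a like fold change.

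The genes around the 4 genes that rose were listed after their values were seen, within 300 kb on GRCm38.p6. Batf3 had 8 tested neighbours, of which 2 were called higher, beside 10.9% of all genes tested. One was Atf3, 61.4 kb away, and the other Nenf, 198 kb away, which had 915 and 777 counts in Mock and 1085 and 1154 in FeSO4 (log2 fold change 0.61 ± 0.11, SE, edgeR adjusted p = 0.000926). The genes nearest to Batf3, Nsl1 at 13.9 kb (0.14 ± 0.10) and Tatdn3 at 35.3 kb (-0.14 ± 0.20), were not called. Batf lies between the bZIP gene Jdp2, at 46.8 kb, and Ttll5, at 116 kb, with Fos 209 kb away. Jdp2 had 64 and 61 counts in Mock and 75 and 93 in FeSO4 (0.63 ± 0.32, SE, edgeR adjusted p = 0.183), and neither Fos nor Ttll5 (0.03 ± 0.11) was called. None of the 3 tested neighbours of Irf4 and the 1 of Prdm1 was called.

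**Figure D5:**
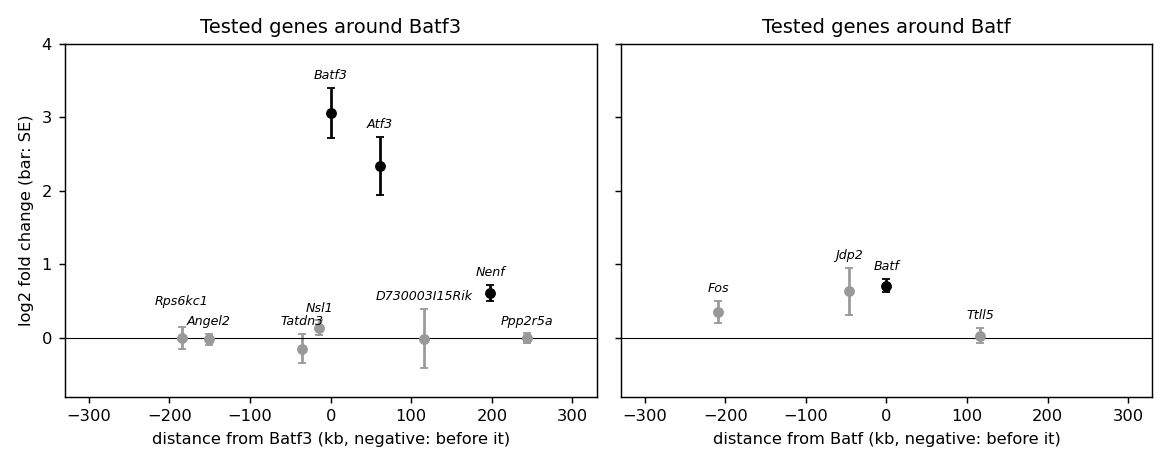
Log2 fold change with SE of tested genes within 300 kb of Batf3 (left) and Batf (right), against distance in kb, black where called. Batf3 and Atf3 stand at 3.06 and 2.34, while the other tested genes of the left panel, except Nenf, lie near 0.

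The 4 libraries held 35183187 to 40859178 counts in gene rows. On these totals, before TMM scaling, 3 counts, the limit that a count of 0 allows, were 0.0734 to 0.0853 CPM by counting error only. The biological coefficient of variation was 8.24%. Replicates of both groups differed by more than sampling noise. The T cell markers Cd3e, Cd4, Cd28, Foxp3 and Il2ra were abundant in every library, with a summed level of 2971 to 3299 CPM. Of these, Foxp3 was called lower and Cd28 higher (0.21 ± 0.07, SE, edgeR adjusted p = 0.0475), the latter lost in 10 of 13 alternatives, among them those without Mock replicate 1, without Mock replicate 2 and without FeSO4 replicate 2. Of the B cell markers, Ms4a1 had 0 or 1 count and Cd79a 69 to 107 counts per library, and both NK cell markers had 0 counts. The CD8 markers summed to 9.04 to 11.0 CPM, with Cd8a at 94 counts in Mock replicate 1 and 25 to 47 elsewhere. Cd8b1 made up most of this sum. It was at 7.49 and 8.39 CPM in the Mock libraries and 9.22 and 9.75 CPM in the FeSO4 libraries, and was not called (edgeR adjusted p = 0.293). The 4 monocyte and macrophage markers summed to 6.19 CPM in Mock replicate 1 and 1.81 to 2.49 CPM elsewhere. Lyz2 had 164 counts in Mock replicate 1 and 0 to 8 elsewhere, and Csf1r 7 and 0, whereas Adgre1 had 8 there and 12 to 29 elsewhere and Cd68 72 there and 50 to 68 elsewhere. Hba-a1 of red blood cells summed to 19.6 to 24.5 CPM in the Mock libraries and 32.5 to 37.5 CPM in the FeSO4 libraries, and was called higher (0.66 ± 0.12, SE, edgeR adjusted p = 0.000731). The part of these markers in the results was not tested.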

How the data were processed

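RNA-seq of iTreg cells was analysed in 2 Mock and 2 FeSO4 libraries, grouped by the labels. The authors deposited raw read counts per Ensembl gene, not normalized. The submitters' processing notes name Trim Galore 0.6.7, STAR 2.7.9a, featureCounts and mm10, while the study's methods name STAR and mm9; the 5 rows of unassigned reads, named as HTSeq names them, were left out. Each held 0.802 to 6.03% of all rows together. Strand setting and annotation release are not given in the sources used here. Columns of no sample numbered 0. Symbols were matched for 32799 of 47729 identifiers.

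In R 4.3.3, edgeR 4.0.16 kept 13732 genes (filterByExpr, 99.9% of counts), scaled them by TMM and tested FeSO4 against Mock by the quasi-likelihood F test, with Benjamini-Hochberg adjustment and calls at 0.05. The script was tested on simulated data. Alternatives were DESeq2 1.42.0, limma-voom (limma 3.58.1), other scalings and filters, the study's threshold, a block for the replicate number, leaving out each library, and, chosen after seeing the data, edgeR's legacy dispersion. Exon lengths and positions came from GENCODE M1 and promoters from RefSeq GRCm38.p6.

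The 10 genes and the lists were chosen with earlier results of these data known. Named were the 10 genes, from each list every called gene up to 6 by smallest p, otherwise the 2 of smallest p, and the 3 nearest profiles of Irf4, Batf and Prdm1 (log2 CPM, prior count 2). Uncalled list genes, Gzmb, Nenf and the other neighbours, and the marker genes were named after their values were seen. 1 marker gene is not reported here. The methods describe paired samples from independent experiments, but no source ties the libraries' numbers to the pairs, so p-values measure only the spread between these libraries, which may in part be technical.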

Additional observations from a re-analysis of the deposited data

How the results depend on the processing

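With 2 libraries per group, each SD rests on 1 difference, and where a library was left out the lone sample was assumed to vary like the other group. Depth limited Batf3, Prdm1 and Atf3 in Mock, at 23 to 43 counts per library. Irf4, Batf, Batf3 and Prdm1 kept direction and call in all 13 alternatives, and their largest adjusted p, each with no filter, were 0.0193, 0.0182, 0.0131 and 0.0468. The largest shift of the all-gene median under another scaling was -0.0655 on the log2 scale.

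Genes called higher numbered 1491, and 980 with library size only, 524 with no filter, 641 at the study's threshold (p under 0.05 before adjustment and a log2 change of at least 0.5) and 893 to 1199 without 1 library. Genes called lower numbered 1259, and 1810 with library size only, 304 with no filter, 787 at the study's threshold and 710 to 1158 without 1 library. Of the 10 factors, 2 were called lower, against 1 with DESeq2, 0 with no filter or at the study's threshold, and 0 to 2 without 1 library. Jun was at -0.37 with DESeq2 (adjusted p = 0.363) and -0.37 with no filter (adjusted p = 0.281), and ranged from -0.56 to -0.17 without 1 library. Junb was at -0.19 with no filter (adjusted p = 0.126) and ranged from -0.25 to -0.14. Jund turned to -0.0153 with library size only. Nfil3 turned to 0.10 without Mock replicate 2 and 0.01 without FeSO4 replicate 1, in a range from -0.16 to 0.10. Fos ranged from 0.0631 to 0.72 without 1 library. The cause of these shifts was not tested.

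Of 38 other genes named with a call, 23 kept it in every alternative, 15 lost it in at least 1, each of them with no filter, and 0 changed sign. The numbers 1 and 2 were treated as numbers only. Deviations of same-numbered libraries had r = 0.029 across all genes and 0.22 across 8522 genes of at least 10 CPM, which are not independent replicates. With the replicate block, Fos was called (0.37, adjusted p = 0.00131), so 5 of the 10 factors were higher, no other of the 10 changed its call, 1 effector gene was called lower, and 3427 genes were called against 2750.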
